A study of Homo sapiens with 19 samples.

Results

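The genes described here are 36 components and feedback regulators of NF-kB and tumour necrosis factor (TNF) signalling, chosen by name, without chemokines. A gene was measured where a probe set, a group of short array probes, was annotated to it alone. That held for 31 of the 36 genes, on 68 probe sets, out of 11963 genes named on the array. BCL3 and SOD2 had only probe sets shared with another gene symbol, 2 and 4 of them, and TRAF2, BIRC3 and RIPK1 were not named here. TNF itself was above its own array's 40th percentile of signal on 1 of 19 arrays and was not tested, with scaled signals from 5.43 to 92.2. The remaining 30 members were tested among 9552 genes.

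RNA was profiled on 1 array for each of 19 lines. Their common ancestor is MDA-MB-231, a basal-type breast cancer line of human origin classed as hormone receptor negative. The arrays comprised the parental line, 3 weakly bone-metastatic lines (2293, 2295 and 2296) and 4 strongly bone-metastatic lines (1833, 2274, 2268 and 2269). There were also 3 weakly lung-metastatic lines (SCP21, SCP6 and SCP26) and 4 strongly lung-metastatic lines (4142, 4173, 4175 and 4180). The lines 1833 and 4175 each gave 1 modal-ploid subline and 1 hyper-ploid subline, the latter with raised DNA content, hence 2 pairs of 1 array against 1. The title of the series concerns ploidy doubling and metastasis. Line 2296 goes by its title here, since another of its labels gives a different number. Sublines were kept in serum-containing medium with selective drugs and harvested before confluence, per the labels' protocols, and the arrays of 1833 and 4175 themselves came from the original sublines after short culture. Each line is 1 culture from 1 parental line, so p-values measure the spread between lines of a group. Values are signals recovered from the deposited ratios and scaled to a common array median of 143.25. They are listed below in the order of lines just given, and differences are on the log2(signal + 16) scale, which understates the change of dim genes. Levels of different probe sets cannot be compared.

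Dimers of RELA, RELB, REL and the products of NFKB1 and NFKB2 make up the NF-kB transcription factors. Inhibitors of the IkB family, encoded by NFKBIA, NFKBIB and NFKBIE, hold these dimers back until the IkB kinase, with its catalytic subunit IKBKB, marks them for breakdown. TNF switches this kinase on through its receptor TNFRSF1A and the adaptor TRADD, and NF-kB then induces its own brakes, among them NFKBIA and TNFAIP3. MDA-MB-231 cells are known for NF-kB activity in the absence of added TNF.

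Promoter sequences are shown for 4 members. TNFAIP2 passed the test in both organs, CFLAR passed in lung lines, and NFKBIA and TNFAIP3 are the textbook feedback inhibitors. Each line holds the 250 bases before the RefSeq start of the gene, 5′ to 3′ on the gene's strand, with matches to the 10-letter kappa-B consensus, on either strand, in capitals.
TNFAIP2: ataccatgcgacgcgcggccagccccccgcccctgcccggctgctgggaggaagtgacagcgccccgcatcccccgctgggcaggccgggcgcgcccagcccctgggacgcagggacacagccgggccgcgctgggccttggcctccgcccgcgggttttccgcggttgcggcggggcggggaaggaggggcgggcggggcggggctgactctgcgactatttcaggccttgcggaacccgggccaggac
CFLAR: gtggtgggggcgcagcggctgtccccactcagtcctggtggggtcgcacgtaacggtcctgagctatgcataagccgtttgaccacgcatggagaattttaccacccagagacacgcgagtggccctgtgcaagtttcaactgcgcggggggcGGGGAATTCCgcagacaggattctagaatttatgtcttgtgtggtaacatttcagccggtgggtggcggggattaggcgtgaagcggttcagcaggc
NFKBIA: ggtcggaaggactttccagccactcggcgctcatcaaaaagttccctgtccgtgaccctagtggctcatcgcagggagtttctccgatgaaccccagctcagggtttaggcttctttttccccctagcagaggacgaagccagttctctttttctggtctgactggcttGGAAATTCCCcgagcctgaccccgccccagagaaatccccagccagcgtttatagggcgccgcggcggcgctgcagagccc
TNFAIP3: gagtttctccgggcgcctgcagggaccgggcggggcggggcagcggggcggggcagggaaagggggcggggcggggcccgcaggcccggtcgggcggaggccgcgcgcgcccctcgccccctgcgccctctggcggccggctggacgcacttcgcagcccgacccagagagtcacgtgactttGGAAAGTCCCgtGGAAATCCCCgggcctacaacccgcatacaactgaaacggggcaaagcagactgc
In GRCh38.p14 these windows lie at chr14:103123211-103123460 on the plus strand (TNFAIP2), chr2:201118466-201118715 on the plus strand (CFLAR), chr14:35404750-35404999 on the minus strand (NFKBIA) and chr6:137867009-137867258 on the plus strand (TNFAIP3). The CFLAR match GGGGAATTCC began 97 bases before the start, and the NFKBIA match GGAAATTCCC 81 bases before it. TNFAIP3 held 2 matches, GGAAAGTCCC and GGAAATCCCC, that began 67 and 55 bases before its start. None was found in the TNFAIP2 window. A match was present in 10 of the 29 members with a RefSeq promoter entry (34.5%) and in 9.57% of all 27305 promoters, with overlapping matches counted separately. Members with an entry that passed a test in bone or lung lines held a match in 2 of 10 cases, CFLAR and the kinase gene MAP3K8. The list was chosen for its part in this pathway, and a match is a description of the letters, not of binding. RELB, NFKBIE, IKBKB, TRADD, RIPK2, CD40 and IER3 had no entry.

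Strongly bone-metastatic lines had lower RNA of 6 of the 30 members than weakly bone-metastatic lines, and 0 were higher, at an adjusted p under 0.05 (limma, Benjamini-Hochberg over 9552 genes). Over all genes 4.71% were called lower and 6.69% higher. Of the 6, MAP3K8 was above background in weak bone lines alone, and 5 members were called when signal was required on at least 7 arrays. In the lung lines 7 members fell and 1 rose, against 5.45% and 3.33% of all genes. In either direction that makes 8 members where 8.78% of genes were called, and 16 at an unadjusted p under 0.05 (23.1% of genes). The corresponding counts in bone lines were 6 (11.4%) and 14 (26.7%). RELB, IKBKE and TNFAIP2 fell in both organs. The median difference of the 30 members was -0.53 in bone lines and -0.53 in lung lines, beside 0.01 and -0.01 over all genes. Below 0 in both organs were 17 members, a joint count not made over all genes. Groups did not overlap, with strong lines lower, for 14 members in bone (12.9% of all genes) and 10 in lung (11.4%). With strong lines higher, they did not overlap for 1 member in bone, the ubiquitin ligase BIRC2 (14.6%), and for 2 in lung, TNFRSF1A and TNFAIP8 (8.40%). Single lines carried part of these counts. Leaving out 2293 or 2295 gave 3 and 1 called members in bone lines, the last being TNFAIP2. In lung lines the count was 3 without SCP6, 4 without 4142, 5 without 4173 and 4 without 4175. Bulk RNA does not tell fewer expressing cells from less RNA per cell.

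**Figure D1:**
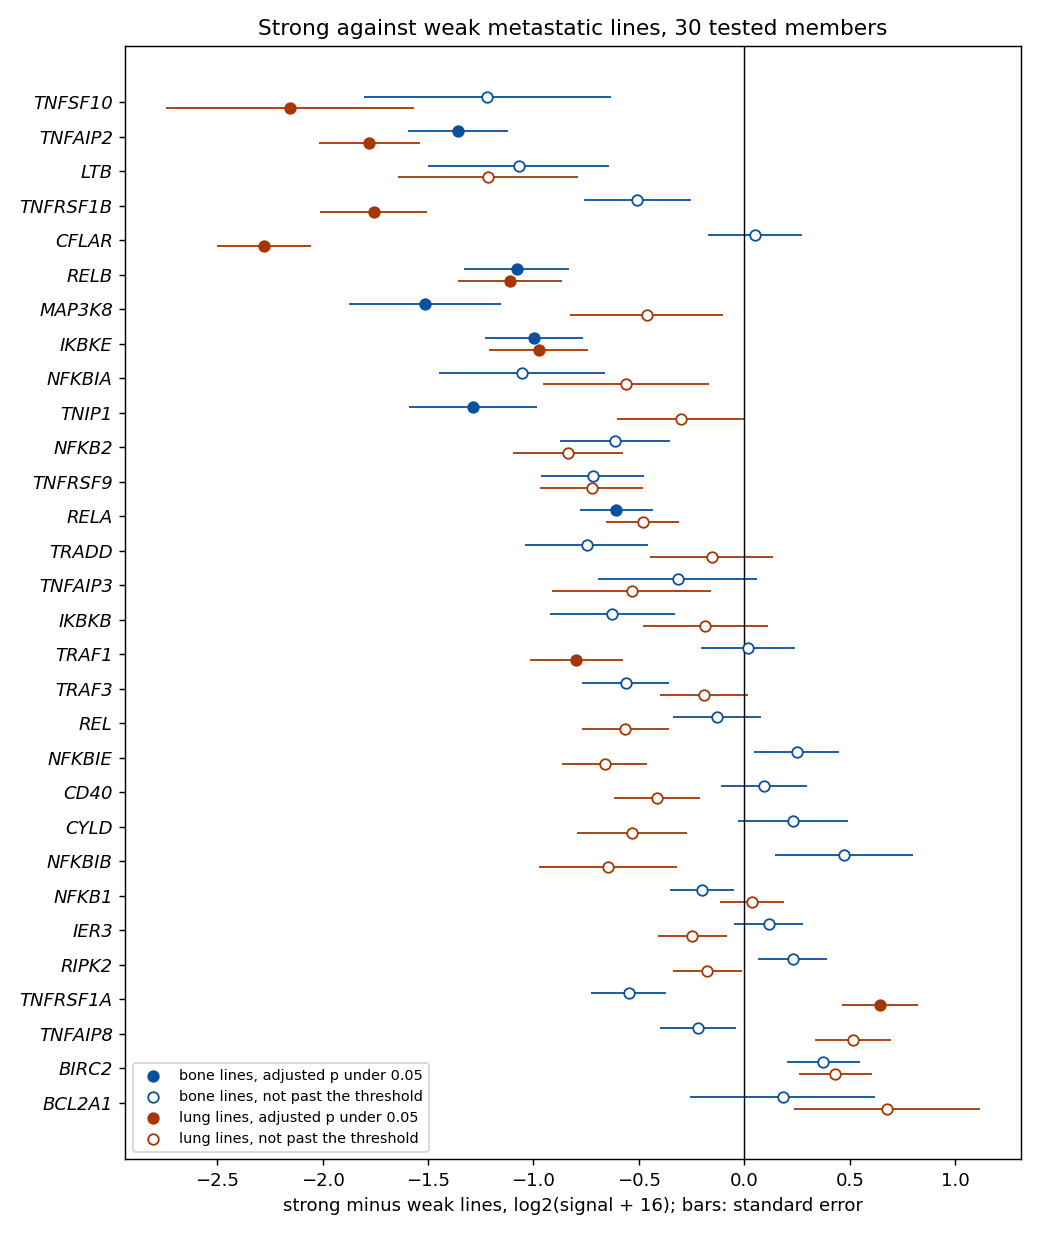
Difference between strongly and weakly metastatic lines, in log2(signal + 16), for each of the 30 tested members, in bone lines (blue) and lung lines (red). Bars are standard errors, filled points have an adjusted p under 0.05 and members are ordered by the mean of both differences. Most points lie left of 0, 20 of 30 for bone (49.0% of all genes) and 25 of 30 for lung (51.1%).

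Markers of other cell types were checked on the same arrays. Of 10 epithelial genes 6 were above the 40th percentile on all 19 arrays, among them the keratins KRT8 and KRT18, while the adhesion gene CDH1 was above it on 1 and CLDN3 and ESRP1 on 0. Of 7 mesenchymal genes 6, VIM included, were above it on all 19 and SPARC on 6. Of the hormone receptor and ERBB2 list, ERBB2 was above it on 19 arrays, ESR1 on 16 (median signal 128) and PGR on 0. Of the leukocyte list 8 of 10 genes had a probe set. LAPTM5 and CD53 were above the 40th percentile on 19 arrays, CD2 on 16, HCLS1 on 15, CD3E and CD14 on 13 each, MS4A1 on 2 and the defining gene PTPRC on 0. The summed leukocyte signal ran from 7914 to 8128 in weak and from 2498 to 3815 in strong bone lines, and from 1762 to 2494 in weak and from 6187 to 6982 in strong lung lines. LAPTM5, a lysosomal membrane protein gene, ranged from 965 to 7151 by itself. Of the endothelial and stromal list, COL1A1 and DCN were above the 40th percentile on 19 arrays and PECAM1 on 17. TEK was above it on 3, KDR on 2, PDGFRB on 1, and CDH5, VWF and LUM on 0. This list summed to 752 to 818 in weak and 1130.2 to 1389 in strong lung lines, and overlapped between bone groups. The epithelial sum ran from 17142 to 18931 in modal-ploid and from 12121 to 15878 in hyper-ploid sublines. The part of these markers in the member differences was not tested. Median array signals before scaling were 124 to 163 on 15 arrays and 89.2 to 97.7 on the 4 ploidy arrays. Labelled spike-in controls averaged 11.3 to 11.7 on the log2 scale in parental and bone lines, 10.2 to 10.97 in lung lines and 9.52 to 9.77 in ploidy sublines, so array handling cannot be told apart from the organ, nor from the step from a line to its ploidy sublines.

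Of the 5 NF-kB subunit genes, RELA and RELB fell in the strongly bone-metastatic lines, and RELB also in the strongly lung-metastatic lines. RELB, the subunit of the non-canonical dimer, read 393, 518 and 399.9 in the weak and 239, 254, 139.5 and 175 in the strong bone lines. Its lung values were 292, 505 and 437 against 128, 201, 214 and 179.8. The groups did not overlap in either organ. The difference was -1.08 in bone (SE 0.25, adjusted p = 0.0134) and -1.11 in lung (SE 0.25, adjusted p = 0.0129). It missed the threshold in bone without line 2295 (adjusted p = 0.0654) and in lung without SCP6 (adjusted p = 0.0556).

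RELA, which carries the main transactivation domain, read 2375, 2209 and 2247 in weak and 1492, 1755, 1108 and 1691 in strong bone lines, again without overlap. The difference was -0.61 (SE 0.17, adjusted p = 0.0378), and -0.48 in lung lines (SE 0.17, adjusted p = 0.109). A second RELA probe set differed by 0.19 in bone lines (adjusted p = 0.597 among 14364 probe sets) and by -0.16 in lung lines. The RELA call was lost when any of 2293, 2295, 2296, 1833 or 2268 was left out, with adjusted p up to 0.122. It was also lost with no filter (adjusted p = 0.0513), in the 7 bone lines only (adjusted p = 0.0799) and with the mean of both probe sets (-0.21, adjusted p = 0.411). NFKB2, which encodes the partner of RELB, differed by -0.61 (adjusted p = 0.151) and -0.84 (adjusted p = 0.0647) and did not overlap in either organ. NFKB1 differed by -0.20 and 0.04, and REL, above the 40th percentile on 10 arrays, by -0.13 and -0.56.

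Among the inhibitors and kinases, the kinase gene IKBKE fell in both organs and none of the 3 IkB genes passed. IKBKE, an IkB kinase relative that also acts in interferon induction, read 579, 638 and 506 in weak and 313, 185, 286 and 361 in strong bone lines. In lung lines it read 549.6, 913 and 552 against 276, 346, 317 and 363. Every strong line lay below every weak line of its organ. The differences were -0.997 (SE 0.23, adjusted p = 0.0152) and -0.97 (SE 0.23, adjusted p = 0.0193). They missed the threshold without 2293 or 2295 in bone and without SCP6, 4142 or 4175 in lung (adjusted p up to 0.0653 and 0.0771), and on a second IKBKE probe set (-0.46 and -0.61). MAP3K8, a kinase upstream of ERK that is bound by the NFKB1 product, was dim, above the 40th percentile on 2 arrays, both of weak bone lines, through which alone it entered the test. It read 79.4, 85 and 95 in weak and 27.5, 26.7, 3.05 and 30.3 in strong bone lines. No strong line was above the 40th percentile, so the difference is a bound, at least 1.02-fold lower (adjusted p = 0.0166). The call was lost without 2295 or 2296, with log2(signal + 1) and with log2 of the deposited ratios (adjusted p up to 0.0698).

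NFKBIA, the fast feedback inhibitor, read 8087, 7572 and 4968 in weak and 2769, 4104, 3663 and 2621 in strong bone lines. These groups did not overlap, yet the difference of -1.05 did not pass (SE 0.40, adjusted p = 0.103). The fit uses a spread shared by bone and lung groups. Standard deviations of NFKBIA were 0.38 in weak and 0.31 in strong bone lines, and 1.05 in weak and 0.44 in strong lung lines. In lung lines NFKBIA read 1181, 4042 and 4324 against 1201, 2359, 2230.4 and 1877, with SCP21 as low as the lowest strong line (-0.56, adjusted p = 0.434). NFKBIB had the largest positive bone difference of the members, 0.47 (adjusted p = 0.394), and a lung difference of -0.65, while NFKBIE stood at 0.25 and -0.66 (adjusted p = 0.0593 in lung). IKBKB differed by -0.63 and -0.18 without passing. Its further probe sets differed by -0.02 and 0.22 in bone and by 0.35 and 0.65 in lung lines.

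TNFAIP2 and TNIP1 stood out among the TNF-induced proteins and feedback regulators. TNFAIP2, a TNF-induced gene tied to membrane protrusions, read 1547, 1659 and 1333 in weak and 641, 585, 538 and 554 in strong bone lines. Lung lines gave 1991, 4337 and 2751 against 614, 1001, 862 and 884. All strong lines were lower than all weak lines in both organs. The differences were -1.36 (SE 0.24, adjusted p = 0.00298) and -1.78 (SE 0.24, adjusted p = 0.000549), or 2.56-fold and 3.43-fold lower, and they passed in each of the 7 leave-outs per organ. A second TNFAIP2 probe set differed by -1.34 (adjusted p = 0.0541) and -1.28 (adjusted p = 0.0761).

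TNIP1, a ubiquitin-binding partner of TNFAIP3 that restrains the pathway, read 5181, 4873 and 4229 in weak and 1591, 2478, 2233 and 1601 in strong bone lines. It was 2.44-fold lower (-1.28, SE 0.30, adjusted p = 0.0159), a call lost without 2293 or 2295 (adjusted p up to 0.0634). Lung lines overlapped, at 1316, 3159 and 2628 against 1165, 1787, 2222 and 2278 (-0.30, adjusted p = 0.606). TNFAIP3, the ubiquitin editing enzyme A20, differed by -0.32 and -0.53 and CYLD, a deubiquitinase, by 0.23 and -0.53, with none passing. A second TNFAIP3 probe set had the opposite sign, at 0.21 in bone and 0.02 in lung lines. The other 4 CYLD probe sets had the opposite sign in both organs, from -0.65 to -0.0012 in bone lines. TNFAIP8 differed by -0.22 in bone and 0.52 in lung lines (adjusted p = 0.0982 in lung), and a second probe set gave 0.80 in lung lines (adjusted p = 0.0150).

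The 2 TNF receptors moved in opposite directions in the lung lines. TNFRSF1A, the receptor present on most cells, read 1615, 1742 and 1774 in weak and 2556, 3045, 2932 and 2269 in strong lung lines, a rise of 0.65 (SE 0.18, adjusted p = 0.0394). Bone lines ran the other way, with 1913, 2284 and 2719 against 1688, 1748, 1609 and 1231 (-0.55, SE 0.18, adjusted p = 0.0648), which passed under quantile and trimmed-mean scaling. The 2 organs' differences themselves differed by -1.19 (SE 0.25, adjusted p = 0.00852), and this held in each of 14 leave-outs. It was 1 of 3 members called in this test, with TNFRSF1B and CFLAR, and 5 were called without 2269. At an unadjusted p under 0.05 there were 8 (26.3% of genes), and in either direction 11.7% of genes were called. Over all genes 6.91% were called higher and 4.76% lower in this test of bone minus lung difference. The TNFRSF1A lung rise on its own was lost in 6 of 7 leave-outs, all but that of 4180 (adjusted p up to 0.111), with no filter (adjusted p = 0.0540) and in the 7 lung lines only (adjusted p = 0.0941).

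TNFRSF1B, the receptor of narrower distribution without a death domain, read 276, 374 and 301 in weak and 101, 97.3, 46.5 and 94.7 in strong lung lines. It was 3.38-fold lower (-1.76, SE 0.25, adjusted p = 0.000876) and passed in all 7 leave-outs. In bone lines it read 219.9, 127 and 189 against 135, 86.4, 141 and 117, which overlapped (-0.51, adjusted p = 0.221). The difference between organs was 1.25 (SE 0.36, adjusted p = 0.0373). It was lost in 8 of 14 leave-outs (2295, 2296, 1833, 2268, SCP6, 4173, 4175 and 4180, adjusted p up to 0.101), under trimmed-mean scaling (adjusted p = 0.0575) and with no filter, just past the threshold.

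TNFSF10, the death ligand TRAIL, fell in the strong lung lines from 275, 1362 and 1869 to 89.9, 181, 162 and 455. The weak line SCP21 lay inside the range of the strong lines. The difference was -2.15 (SE 0.59, adjusted p = 0.0360) and missed the threshold without SCP6, SCP26, 4142, 4173 or 4175 (adjusted p up to 0.124) and in the 7 lung lines only (adjusted p = 0.111). Bone lines read 1241, 1153 and 1031 against 262, 732, 637 and 431 without overlap, but did not pass (-1.22, SE 0.59, adjusted p = 0.204). In a fit of the 7 bone lines only, the adjusted p was 0.0503. The 2 further TNFSF10 probe sets were lower in strong lines of both organs, from -0.99 to -1.77. Neither passed in either organ (adjusted p = 0.0750 and 0.0644 in lung lines). LTB, a ligand of the non-canonical route, was above the 40th percentile on 7 arrays and differed by -1.07 and -1.22 (adjusted p = 0.126 and 0.101). TNFRSF9, a costimulatory receptor, did not pass in either organ (adjusted p = 0.0725 and 0.0840) and did not overlap in either, with 0 strong bone lines above the 40th percentile. CD40 stood at 0.09 and -0.41, and its further probe sets at -0.42 to -0.16 in bone and -0.97 to -0.22 in lung lines.

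Among adaptors and ubiquitin ligases, TRAF1 alone passed, in lung lines. TRAF1, an NF-kB-induced adaptor, read 265, 249 and 191 in weak and 117, 148, 112 and 135 in strong lung lines (-0.80, SE 0.22, adjusted p = 0.0391). That call was lost in 6 of 7 leave-outs, all but that of SCP26 (adjusted p up to 0.111), with no filter (adjusted p = 0.0533) and in a fit of the 7 lung lines only (adjusted p = 0.0571). In bone lines TRAF1 differed by 0.02, a sign that turned under other scalings. TRADD differed by -0.75 (adjusted p = 0.116) and -0.15, and its second probe set by -0.07 in bone lines. TRAF3, a brake on the non-canonical route, stood at -0.56 (adjusted p = 0.0973) and -0.19. BIRC2, which with TRAF proteins attaches ubiquitin at the receptor, read 3700.1, 4215 and 3401 in weak and 4434, 5133, 5555 and 4469 in strong bone lines (0.37, adjusted p = 0.183) and differed by 0.43 in lung lines (adjusted p = 0.147). RIPK2, the kinase of NOD receptor signalling, differed by 0.23 and -0.17, and its second, dimmer probe set by -1.13 and -0.39.

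CFLAR, which encodes the caspase-8 inhibitor c-FLIP, fell in the strong lung lines. On its brightest probe set it read 2116, 3081 and 3182 in weak and 406, 591, 512 and 764 in strong lung lines, 4.85-fold lower (-2.28, SE 0.22, adjusted p = 6.64e-05). The weak bone lines read 1166, 1085 and 1174 and the strong ones 1330.5, 1416, 1063 and 975, a difference of 0.05 (SE 0.22, adjusted p = 0.920) whose sign turned under quantile and trimmed-mean scaling. The difference between organs was 2.33 (SE 0.32, adjusted p = 0.000407). Both the lung and the between-organ result passed in every leave-out. With the mean of all kept probe sets they were smaller, -1.13 and 0.94 (adjusted p = 0.00205 and 0.0334). Of the 10 kept CFLAR probe sets, 9 were called lower in lung lines, from -0.83 to -2.28, and the remaining one differed by 0.10. Of those 9, 8 carry the array maker's suffix for probes that may bind other transcripts, and all share 1 gene, so they are not independent measurements. BCL2A1, a BCL2 family survival gene, was above the 40th percentile on 2 arrays, none of them of a bone or lung line, so no difference is read for it, and IER3, an early response gene, by 0.12 and -0.25, the bone sign turning under quantile normalisation.

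**Figure D2:**
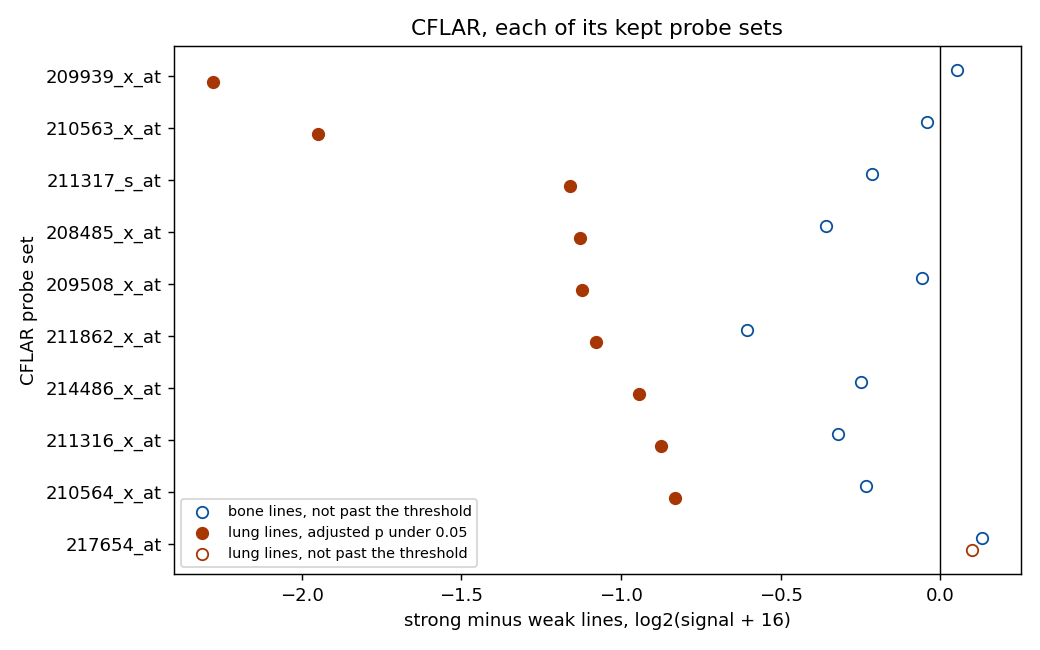
Difference between strongly and weakly metastatic lines, in log2(signal + 16), for each of 10 kept CFLAR probe sets, ordered by the lung difference, with bone lines in blue and lung lines in red. Filled points have an adjusted p under 0.05 over 14364 probe sets, and 9 of the 10 lung points are filled while 0 of the bone points are.

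**Figure D3:**
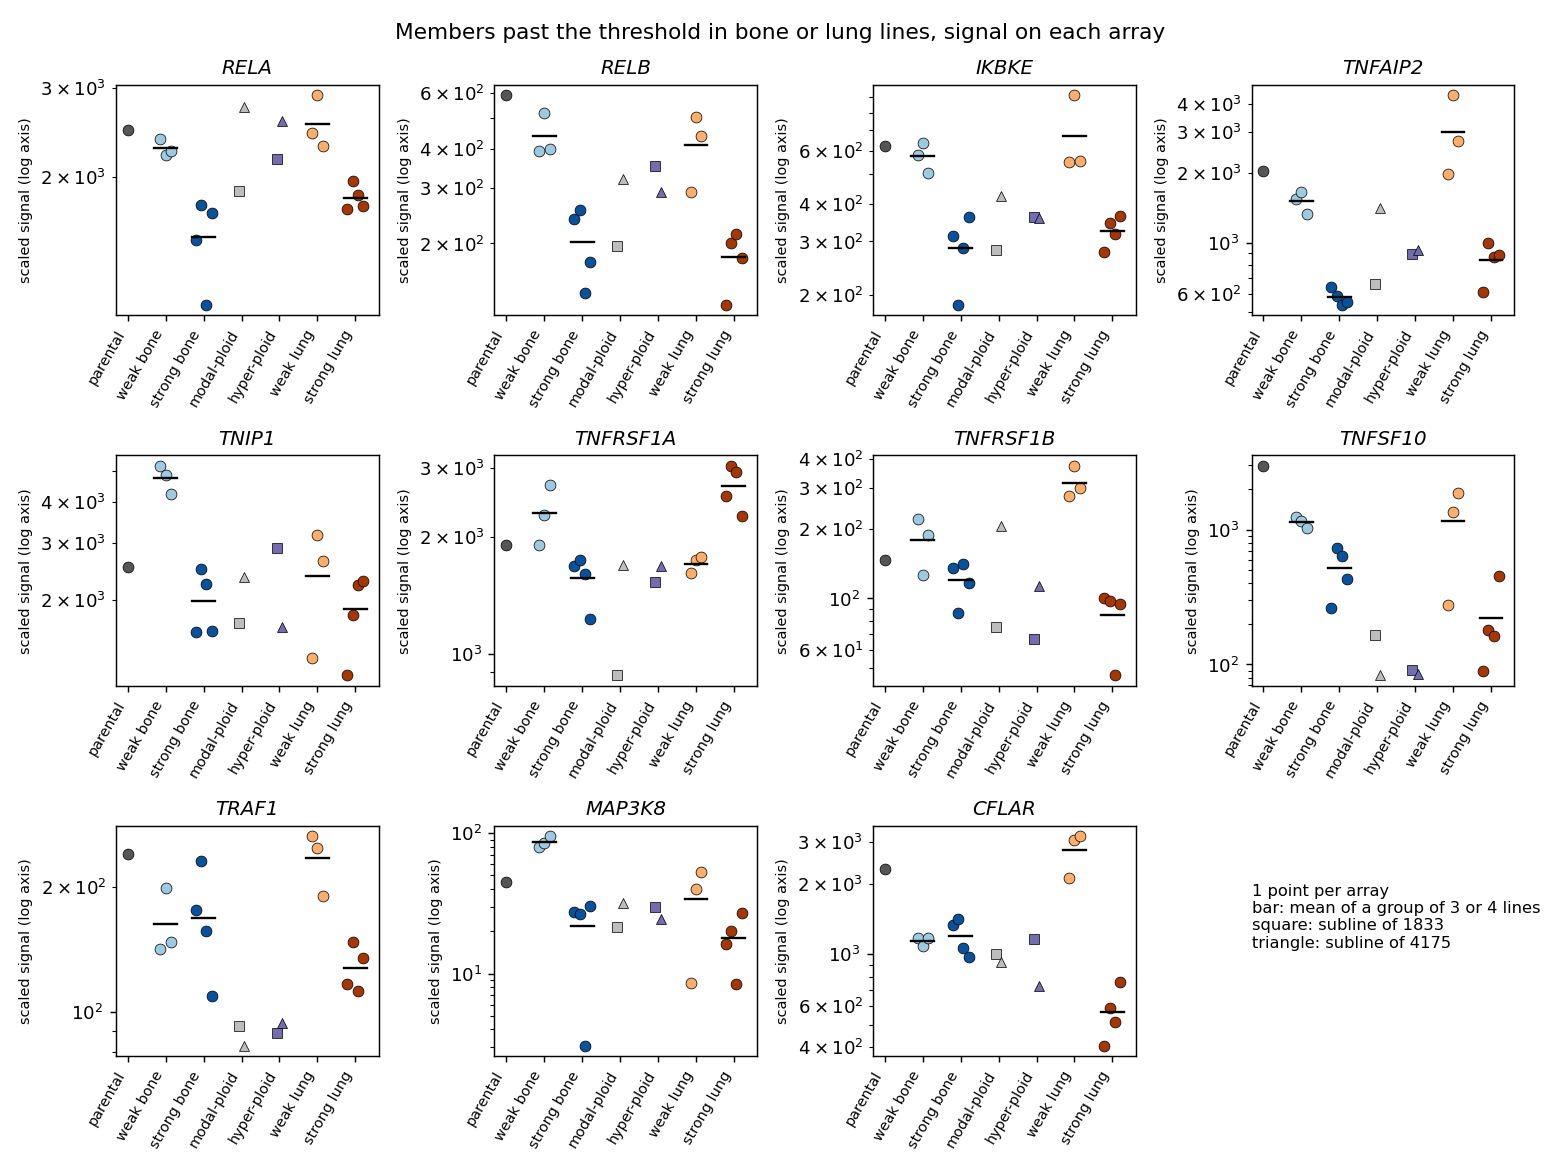
Scaled signal (log axis, which differs between panels) on each of 19 arrays for the 11 members that passed in bone or lung lines. Each point is 1 array, bars are means of 3 or 4 lines, squares are sublines of 1833 and triangles sublines of 4175. The CFLAR panel shows the 4 strong lung lines, at 406 to 764, below the 3 weak lung lines, at 2116 to 3182. Bone and lung lines come from separate array sets, so levels are not compared between them.

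Ploidy pairs gave 0 called members, against 1 gene of 9552 overall (0.0105%), in the fit of hyper-ploid minus modal-ploid sublines blocked on the parent line. With 1 residual degree of freedom, 1 member had an unadjusted p under 0.05, TNFRSF9 (limma, adjusted p = 0.643), where 5.36% of all genes did. TNFRSF9 lay below the 40th percentile on every ploidy array, so nothing is read from that result. In the 1833 pair, 2 members were past 2-fold higher in the hyper-ploid subline (1.69% of genes) and 0 were past 2-fold lower (1.61%). Of these, BCL2A1 went from 115 to 268 (1.11), above the 40th percentile on both arrays and on no other. It entered the test through these 2 arrays alone, so its place in the count rests on the values counted. TNFRSF9 went from 6.74 to 48.3, below the 40th percentile on both, so its difference is not measured. The count that rests on signal above background is 1, that of BCL2A1. Each pair compares 1 array with 1, with no replicate check.

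Several inhibitors and subunits were higher in the hyper-ploid 1833 subline and lower in that of 4175, with no test of the single pair. RELB went from 197 to 353 in 1833 (0.79) and from 319 to 291 in 4175 (-0.12, a sign that turned under trimmed-mean scaling). NFKBIA went from 2079 to 2979.5 (0.52) in 1833 and from 2119 to 1389 (-0.60) in 4175. TNIP1 gave 1693 and 2892 in the 1833 sublines (0.77), and 2339.6 and 1644 in the 4175 sublines (-0.50). In the plot of both pairs these 3 genes sit on opposite sides of 0. IER3 moved from 9979 to 16092 (0.69) and from 10303 to 8297 (-0.31), and TNFRSF1A from 884 to 1530.5 (0.78) and from 1697 to 1688 (-0.01, likewise not stable in sign). TNFAIP2 stood at 0.42 and -0.60. TNFSF10 was the member with the largest drop in the 1833 pair, from 167 to 91.4 (-0.77).

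**Figure D4:**
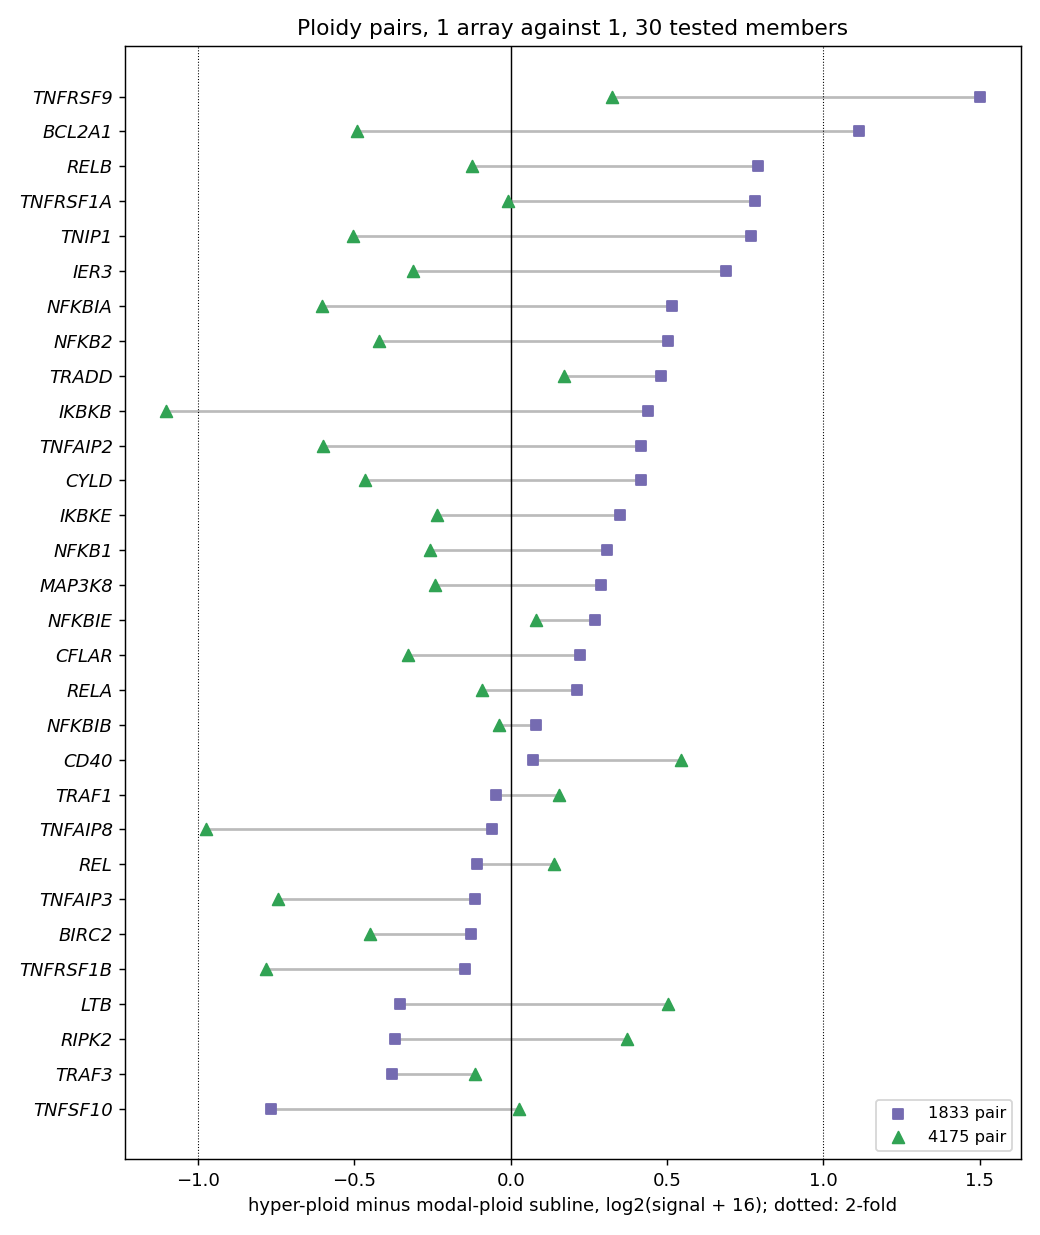
Difference between the hyper-ploid and the modal-ploid subline, in log2(signal + 16), for each of 30 members in the 1833 pair (squares) and the 4175 pair (triangles). Dotted lines mark 2-fold, and 16 members lie right of 0 in the 1833 pair and left of 0 in the 4175 pair.

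In the 4175 pair 1 member was past 2-fold lower in the hyper-ploid subline (2.97% of genes) and 0 were past 2-fold higher (2.18%). It was the kinase gene IKBKB, from 542 to 244 (-1.10), and its other 2 probe sets differed by 0.17 and -0.30. TNFAIP8 went from 729.7 to 364 (-0.97), TNFRSF1B from 206 to 113 (-0.78) and TNFAIP3 from 355 to 206 (-0.74), while CD40 went from 338 to 500.4 (0.54). In all, 16 of 30 members were higher in the hyper-ploid 1833 and lower in the hyper-ploid 4175 subline (33.3% of genes), and 5 the reverse (20%). Of the 30, 20 were higher in the hyper-ploid subline of 1833 (57.6% of genes) and 9 in that of 4175 (44.3%). Past 0.5 on the log2 scale, 8 were higher and 1 lower in the 1833 pair (8.78% and 7.41% of genes), and 2 were higher and 7 lower in the 4175 pair (10.4% and 14.1%). Medians were 0.28 and -0.24, beside 0.06 and -0.06 over all genes. The count in the 4175 pair moved with scaling, from 21 members lower to 18 with quantile normalisation and 16 with a trimmed mean, which shifted all genes by 0.10 and 0.15. A direct test of 1833 pair minus 4175 pair, with the spread taken from the 14 bone and lung lines, called 0 members (0.0105% of genes). IER3 alone had an unadjusted p under 0.05 (limma, difference 1.0003, adjusted p = 0.9998, with 2.15% of genes at that level). That test assumes that single ploidy arrays vary like lines within a group, which was not tested.

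The parental array can be set against the bone lines, which share its array set. It lay nearer the strong than the weak bone mean for 11 of 30 members, where 50.9% of genes did, and nearer the weak mean for 19. TNFSF10 read 2976 in the parental line, 1.37 above the weak and 2.59 above the strong bone mean, and CFLAR read 2309.6, 1.01 and 0.96 above. RELB (589.9) and TNFAIP2 (2035) were 0.43 above the weak means and 1.51 and 1.79 above the strong means. TNIP1 (2527) lay between the group means, with differences of -0.90 from the weak and 0.38 from the strong mean. With 1 parental array, no test was made.

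Other components of the pathway had medians near 0. Of 46 tested genes out of 59 listed, 6 were higher and 1 lower in strong bone lines, and 2 higher and 1 lower in strong lung lines, with medians of 0.07 and -0.06. Over all genes the shares were 6.69% and 4.71% in bone and 3.33% and 5.45% in lung lines. In either direction they were 11.4% in bone and 8.78% in lung lines. Nothing is read from the list's counts, which are small. The lung count moved to 6 under quantile normalisation. In bone lines the paracaspase gene MALT1 rose by 2.22 (SE 0.22, adjusted p = 4.74e-05), the ubiquitin ligase gene PELI1 by 1.24 and the ubiquitin-conjugating enzyme gene UBE2N by 1.11. LTBR, the receptor for lymphotoxin, fell in bone lines (-0.83). In lung lines RNF11 (0.83) and TNFRSF21 (0.67) rose and LITAF fell (-1.38).

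NF-kB-inducible cytokines and effectors were listed separately. Of 28 tested out of 34, 1 rose and 10 fell in strong bone lines (6.69% and 4.71% of all genes), and 5 rose and 6 fell in strong lung lines (3.33% and 5.45%). With signal required on at least 7 arrays, 1 rose and 8 fell in bone lines, and 5 rose and 5 fell in lung lines. CCL20, above the 40th percentile on 4 arrays, and IL32, on 6, do not meet that requirement. In bone lines LCN2, an iron-binding acute phase protein gene, fell by 5.15 on the log2 scale, and the phosphatase gene DUSP1 rose (2.30). The complement gene C3 and the chemokine gene CCL20 fell to a level not above the 40th percentile in any strong bone line, at least 13.0-fold and 6.74-fold lower. In lung lines LCN2 (-3.94) and C3 (-3.20) fell, and IL32 was at least 5.63-fold lower. The cytokine gene CSF3 was at least 4.41-fold higher in strong lung lines, the adhesion molecule gene VCAM1 at least 3.57-fold and the prostaglandin synthase gene PTGS2 at least 1.86-fold. These bounds set the brighter group against the 40th percentile of the dimmer group's arrays. Medians of the tested effectors were -0.89 in bone and -0.36 in lung lines. In the ploidy pairs the hyper-ploid 1833 subline had 8 effectors past 2-fold up and 0 down (1.69% and 1.61% of all genes), and that of 4175 had 0 up and 5 down (2.18% and 2.97%). Their pair medians were 0.35 and -0.41.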

How the data were processed

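RNA of 19 cell lines was measured on 1 Affymetrix array each. The authors deposited linear ratios, each a signal divided by a value of its probe set, in 2 separately divided array sets (10 parental, 1833 and bone arrays, 9 lung and 4175 arrays). The array software is not given in the sources used here. Signals were recovered from the ratios as whole multiples of 0.1 for 22276 of 22283 probe sets (99.97%), and scaled to a common median. The tolerance was 0.01 steps for dim signals and widened with signal, and the largest distance was 0.0496 steps. A probe set was kept if 2 or more arrays had it above their 40th percentile (16326 kept), and the brightest stood for its gene. Probe sets with several symbols were left out (1043), as were those with none (2169).

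Tests used limma 3.58.1 in R 4.3.3 on log2(signal + 16) with Benjamini-Hochberg adjustment. Strong and weak lines were compared in 1 fit of 14 lines, and hyper-ploid and modal-ploid sublines in a fit of 4 arrays blocked on the parent line, since both sublines of a pair derive from the same line. The scripts were tested on simulated data. Members, gene lists and the rule for named genes (called members, and the 5 largest differences in each direction per organ) were chosen with earlier results of these data known. Precision is limited by the number of lines. Promoters came from RefSeq (GRCh38.p14).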

Additional observations from a re-analysis of the deposited data

Results flagged for a closer look

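In 4 of 60 groups of 4 lines 1 line stood apart from the other 3 by a gap, as a share of the group's range, above Dixon's critical value, where chance gives about 1 in 20. Line 4175 was low for TNFRSF1B among strong lung lines (0.918). Line 4142 was low for TRADD (0.844) and high for RIPK2 (0.867) in the same group. Line 2268 was low for MAP3K8 among strong bone lines (0.908), where 0 strong bone lines were above the 40th percentile.

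The strong minus weak difference itself differed between bone and lung lines for 3 members by limma's test. It was lower in bone for TNFRSF1A (-1.19), and higher in bone for TNFRSF1B (1.25) and CFLAR (2.33).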

How the results depend on the processing

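The bone count of members (6) stayed within 1.5 times under each alternative other than leaving out a line, which gave 1 to 6. The lung count (8) was 13 with quantile normalisation (3 higher and 10 lower), 5 in a fit of the 7 lung lines only, and 3 to 9 with a line left out. The between-organ count (3) was 5 with quantile normalisation and 2 to 5 with a line left out. Members past 2-fold in the 1833 pair (2) numbered 1 with quantile normalisation, 0 with log2(signal + 64) and 1 with signal required on at least 7 arrays. In the 4175 pair (1) they numbered 0 with quantile normalisation, a trimmed mean, log2(signal + 64) or the mean of kept probe sets, and 2 with log2(signal + 1), no filter or the deposited ratios. Other components called in lung lines (3) numbered 6 with quantile normalisation, log2(signal + 64) or limma-trend, 5 with signal on at least 7 arrays, and 1 to 5 with a line left out. They numbered 4 to 7 in bone lines with a line left out, and effectors 6 to 11 in bone and 8 to 13 in lung lines. Differences near 0 changed sign. TRAF1 in bone lines was -0.0027 with quantile normalisation, -0.056 with a trimmed mean and -0.14 to 0.19 with a line left out. CFLAR in bone lines was -0.0277 with quantile normalisation, -0.0276 with a trimmed mean, -0.19 with the mean of probe sets and -0.035 to 0.14 with a line left out. Between organs, RELB was -0.061 with quantile normalisation, -0.10 with a trimmed mean and -0.13 to 0.25 with a line left out. With the mean of probe sets RELA was 0.11 and IKBKE 0.064, and with a line left out they ran from -0.22 to 0.015 and from -0.26 to 0.16. Without the replicate block on line of origin, hyper-ploid against modal-ploid sublines gave 0 called members, as with it. Testing each kept probe set by itself, chosen after seeing the data, gave 6 genes in bone, 9 in lung and 4 between organs. Of 60 member probe sets, 10% were called in bone and 28.3% in lung lines, against 10.9% and 8.11% of all 14364 probe sets. Of the 17 called in lung lines, 9 were of CFLAR. The causes of these changes were not tested. Dim members (MAP3K8, BCL2A1, LTB, TNFRSF9 and REL) are limited by signal over background.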
